A study of Sesbania grandiflora with 21 samples.

Results

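The addition of DS to Y at suffix L was examined in leaves of Sesbania grandiflora, a legume tree, by setting the 3 libraries titled DS+Y-L against the 3 titled Y-L. These 6 libraries were chosen by their titles from the 21 of the series, which form 7 groups of 3. DS+Y-L leaves carry both treatment labels, and Y-L leaves carry Y without DS. A further 3 comparisons that share no library with these groups are used beside them, namely DS-L against ck, DS+Y-S against Y-S, and DS-S against ck. The labels expand neither DS, Y, L nor S, and the series is titled for drought and salt stress in combination without saying which letters stand for which stress, dose or duration. The sources used here give no cultivar, plant age or dose, and do not state whether a library came from 1 plant or from pooled leaves. All groups share the tissue, leaf. Nothing states that replicate libraries stem from different plants, so p-values rest on a spread between libraries that may be technical.

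Drought and salt both lower the water available to a plant cell, and salt adds an excess of sodium and chloride ions. As general background for land plants, the hormone abscisic acid closes the stomata under both stresses and switches on genes for compatible solutes and for late embryogenesis abundant proteins, which protect drying cells. Leaves also lower the expression of many photosynthesis genes when water is short. Which of these genes moved cannot be read here, because the counts are given for de novo assembled genes that the files do not pair with gene names. For the same reason the leaf label could not be checked against marker genes, no sequence can be shown, and only 4 genes are printed by their identifiers.

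The 6 libraries held between 16947414 and 18873271 counts, within the 16431940 to 20138058 of the whole series. DS+Y-L libraries had counts on 53696 ± 4210 genes and Y-L libraries on 53130 ± 5158 (SD, n = 3 each), a difference smaller than the spread (two-sided exact permutation p = 0.9, where 0.1 is the smallest that 3 against 3 can give). The 100 most abundant genes of each library took 17.4 ± 0.548% of the counts in DS+Y-L and 20.3 ± 1.99% in Y-L (SD, n = 3 each). Every DS+Y-L library lay below every Y-L library in this share, which gave the smallest exact permutation p of 0.1 (adjusted p = 0.2 over the 2 library measures tested).

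The libraries did not separate by label. The difference between a pair of libraries was taken as the median over 38211 genes of the absolute difference in log2 CPM, the logarithm of the library-scaled share of counts. Between DS+Y-L replicates 1 and 2 it was 0.62. DS+Y-L replicate 3 stood 0.77 and 0.78 from these replicates of its own group, but 0.45 from Y-L replicate 1 and 0.53 from Y-L replicate 3. Among all 20 other libraries of the series, Y-L replicate 1 was the nearest to DS+Y-L replicate 3, and DS+Y-L replicate 3 was the nearest to Y-L replicate 1. The Y-L libraries differed by 0.52 to 0.71 among themselves, and Y-L replicate 2 was the farthest from the other 2. Whether DS+Y-L replicate 3 carries the label it should cannot be checked from the files, so calls, fold changes and counts of separated genes are also given without it.

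**Figure D1:**
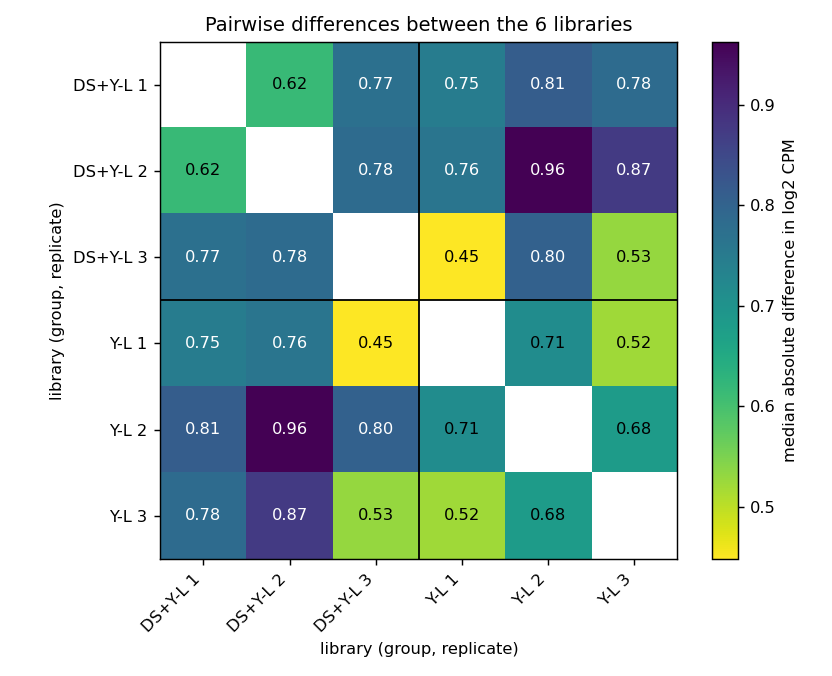
Median absolute difference in log2 CPM over 38211 genes between each pair of the 6 libraries, with rows and columns ordered by group and replicate and black lines between the groups. DS+Y-L replicate 3 is closer to Y-L replicates 1 and 3 (0.45 and 0.53) than to DS+Y-L replicates 1 and 2 (0.77 and 0.78).

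What adding DS to Y changed was asked first for single genes. In the edgeR quasi-likelihood test on all 21 libraries, 0 of 38211 genes passed an adjusted p of 0.05 in either direction (0% called), and the smallest adjusted p was 0.142. At an unadjusted p under 0.05, a threshold that covers both directions together, there were 1954 genes higher in DS+Y-L (5.11% of those tested) and 1921 lower (5.03%). DESeq2 called 276 genes higher (0.722%) and 159 lower (0.416%), and limma-voom with library weights called 15 higher (0.0393%) and 7 lower (0.0183%). Without a filter on low counts edgeR called 934 genes higher (0.958% of 97456) and 799 lower (0.82%), of which 1646 in all are among the 38211, so the count depended on which genes entered the fit, and the cause was not tested. The limma-voom calls had absolute log2 fold changes of 1.84 to 8.20 among the 15 higher genes and of 2.12 to 4.69 among the 7 lower ones. Of these 22 genes, 19 were also called by DESeq2, which is 86.4% of the limma-voom calls and 4.37% of the DESeq2 calls. The limma-voom weights were 1.09, 0.941 and 0.426 for DS+Y-L replicates 1, 2 and 3, so replicate 3 counted least. All 22 genes were also called by edgeR with DS+Y-L replicate 3 left out. The median standard error of an edgeR log2 fold change was 0.77, so a gene needed a change of several fold to stand clear of the spread between libraries. In bulk leaf RNA, fewer cells of a type and less RNA per cell cannot be told apart.

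With all libraries, fold changes lay evenly on both sides of 0. The median edgeR log2 fold change was -0.01, the middle 90% of genes lay between -1.83 and 1.90, and the median absolute value was 0.56. A log2 fold change of at least 1 was reached by 5303 genes higher in DS+Y-L (13.9%) and 5447 lower (14.3%). All 3 DS+Y-L values exceeded all 3 Y-L values in 2356 genes (6.17%) and lay below all of them in 3022 genes (7.91%). With only 3 libraries in each group some genes separate without any effect of DS, and these shares include such genes. Of genes that combined no overlap with a doubling or halving at the least, 1286 were higher (3.37%) and 2022 lower (5.29%). The 2 directions were thus nearly even in fold change, while separated genes were more often lower. With DS+Y-L replicate 3 left out the balance moved to the lower side, with 6207 genes at least doubled (16.2%) and 8684 at least halved (22.7%), and a median log2 fold change of -0.08. The remaining 2 DS+Y-L libraries lay above all Y-L libraries in 6648 genes (17.4%) and below them in 7508 (19.6%), where fewer libraries make separation easier.

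**Figure D2:**
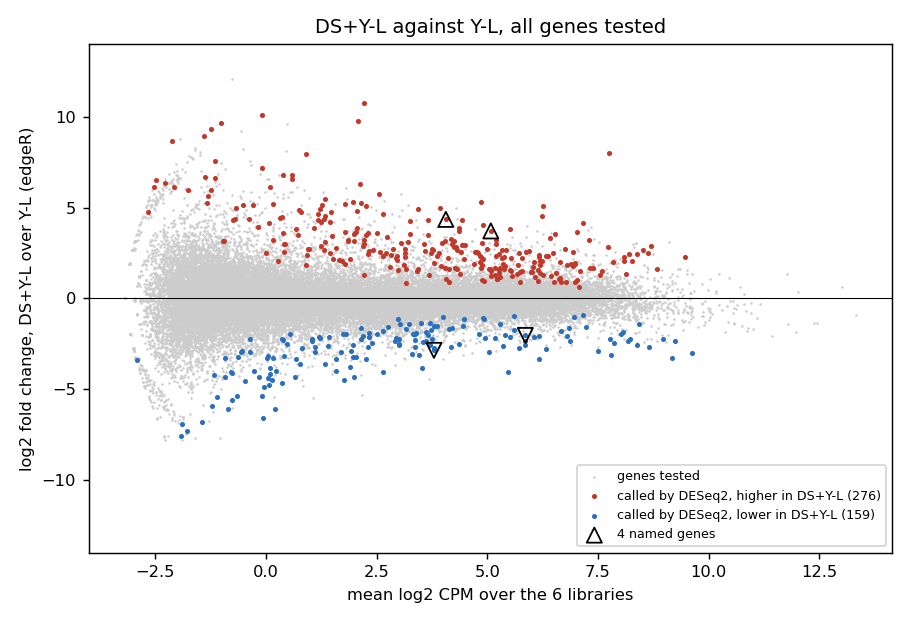
edgeR log2 fold change of DS+Y-L over Y-L (vertical axis) against the mean log2 CPM over the 6 libraries (horizontal axis) for 38211 genes. Red and blue points are the 276 genes that DESeq2 called higher and the 159 it called lower, triangles are the 4 named genes, and 0 genes lie beyond the vertical range.

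The 2 genes named as higher were those of smallest edgeR p among genes with at least 5 CPM in the higher group, a doubling or more and no overlap. TRINITY_DN11331_c0_g2 stood at 197, 244 and 20.2 CPM in DS+Y-L replicates 1, 2 and 3, against 14.2, 12.5 and 8.44 CPM in Y-L replicates 1, 2 and 3. Replicates 1 and 2 of DS+Y-L stood far above all others, and replicate 3 was just above the highest Y-L library. The gene averaged 153 ± 118 CPM for DS+Y-L and 11.7 ± 2.94 CPM for Y-L (SD, n = 3 each). Its log2 fold change of 3.71 (SE 0.61) had an edgeR adjusted p of 0.142. In the 15 libraries of the other groups it ran from 7.66 to 21.5 CPM, a range that holds DS+Y-L replicate 3. DS-L averaged 16.5 CPM and ck 12.7 CPM, while DS+Y-S averaged 17.4 CPM, Y-S 13.2 CPM and DS-S 13.1 CPM. Its deposited FPKM, which scales counts by gene length, averaged 70.8 FPKM for DS+Y-L and 5.96 FPKM for Y-L. A relative in the same assembly component, with which it may share reads, averaged 7.85 CPM over the DS+Y-L libraries and 2.33 CPM over the Y-L libraries.

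TRINITY_DN26884_c0_g1 stood at 113, 130 and 23.6 CPM in the 3 DS+Y-L libraries, against 6.21, 5.02 and 1.83 CPM in the 3 Y-L libraries. All 3 DS+Y-L libraries were above the Y-L range here, replicate 3 included. The group means were 88.9 ± 57.2 CPM for DS+Y-L and 4.35 ± 2.26 CPM for Y-L (SD, n = 3 each). The log2 fold change was 4.35 (SE 0.72), with an edgeR adjusted p of 0.142. This gene was also high where DS was given without Y, at 18.7 ± 11.8 CPM for DS-L leaves and 1.31 ± 0.153 CPM for ck leaves (SD, n = 3 each). At suffix S with Y it did not separate, with 8.28 ± 0.512 CPM in DS+Y-S and 8.23 ± 4.89 CPM in Y-S (SD, n = 3 each). Without Y at suffix S, the DS-S libraries lay between 6.11 and 23.7 CPM with a mean of 12.9, above the ck libraries at 1.14 to 1.41 CPM. The ck libraries lay below every other library of the series. Per length it was the higher of the 2 genes in DS+Y-L, at 78.2 FPKM, but the lower of them in Y-L, at 3.65 FPKM.

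TRINITY_DN5508_c0_g1 led the genes lower in DS+Y-L, at 3.47, 5.01 and 8.50 CPM in the 3 DS+Y-L libraries against 15.8, 45.7 and 62.2 CPM in the 3 Y-L libraries. The means were 5.66 ± 2.57 CPM for DS+Y-L and 41.2 ± 23.5 CPM for Y-L (SD, n = 3 each). The log2 fold change was -2.86 (SE 0.52), with an edgeR adjusted p of 0.251. All 3 DS+Y-L libraries lay below each of the other 18 libraries of the series, of which the 15 outside Y-L ran from 11.2 to 48.4 CPM. DS-L averaged 18.9 CPM and ck 24.8 CPM, and DS+Y-S averaged 23.4 CPM and Y-S 21.4 CPM. Per length, it averaged 7.78 FPKM in DS+Y-L and 50.7 FPKM in Y-L.

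TRINITY_DN3473_c0_g1 stood at 26.5, 20.5 and 44.6 CPM in the 3 DS+Y-L libraries against 63.5, 145 and 169 CPM in the 3 Y-L libraries. The groups did not overlap, and DS+Y-L replicate 3 and Y-L replicate 1 were the nearest pair across them. The means were 30.6 ± 12.6 CPM for DS+Y-L and 126 ± 55.4 CPM for Y-L (SD, n = 3 each). The log2 fold change was -2.04 (SE 0.40), with an edgeR adjusted p of 0.256. DS-L averaged 64.4 CPM and ck 101 CPM, and DS+Y-S averaged 69.5 CPM and Y-S 86.2 CPM. Per length it averaged 17.5 FPKM in DS+Y-L and 65.7 FPKM in Y-L.

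**Figure D3:**
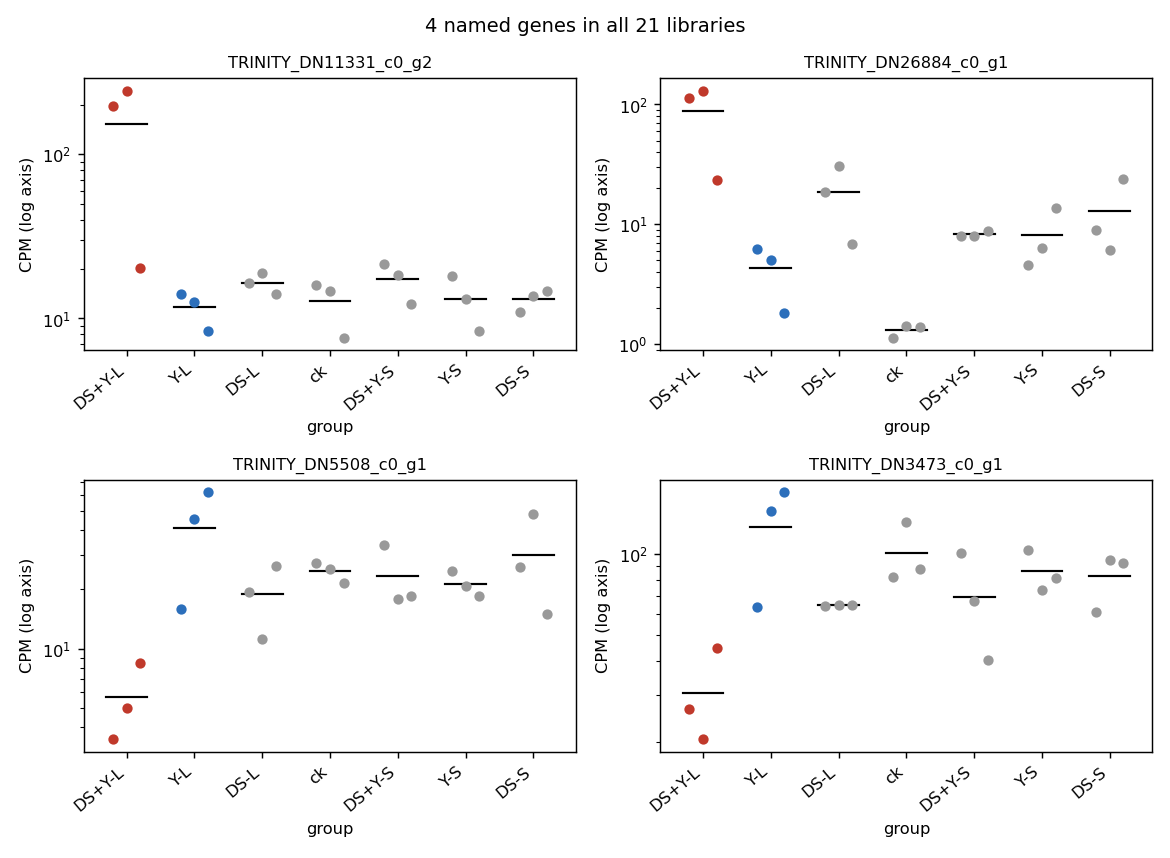
CPM (log axis) of the 4 named genes in all 21 libraries by group, with 1 point per library in replicate order and a line at each group mean. In the upper panels DS+Y-L replicates 1 and 2 stand far above replicate 3, while in the lower panels all 3 DS+Y-L libraries lie below the 3 Y-L libraries.

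Leaving out DS+Y-L replicate 3 brought all 4 genes past the threshold in edgeR. The log2 fold change was then 4.23 for TRINITY_DN11331_c0_g2 (adjusted p = 0.0001) and 4.79 for TRINITY_DN26884_c0_g1 (adjusted p = 0.0023). For the lower genes it was -3.28 for TRINITY_DN5508_c0_g1 (adjusted p = 0.0153) and -2.42 for TRINITY_DN3473_c0_g1 (adjusted p = 0.0145). DESeq2 called all 4 with every library kept. In limma-voom, which gave replicate 3 the least weight in DS+Y-L, the 2 higher genes were called (adjusted p = 0.0222 each). The 2 lower ones were not called by limma-voom (adjusted p = 0.0624 and 0.0536). In each of these genes replicate 3 was the DS+Y-L library nearest to Y-L, so leaving it out widened the difference. The genes were also chosen by their edgeR p in this comparison, so none of these p-values is independent support.

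By the same ranking, the 20 leading genes of each direction were described as lists, which the comparison itself chose. The 20 higher genes had log2 fold changes of 1.80 to 10.08 with a median of 2.57, where the median over all genes tested was -0.01, and edgeR adjusted p from 0.142 to 0.309. Their median level was 89.1 CPM for DS+Y-L, 11.7 CPM for Y-L, and 11.2 to 15.2 CPM in each of the other 5 groups. The 20 lower genes had log2 fold changes of -3.36 to -1.12 with a median of -2.13, and adjusted p from 0.251 to 0.324. Their median level was 6.62 CPM for DS+Y-L and 33.3 CPM for Y-L, with 14.6 to 20.8 CPM in the other 5 groups. The higher list thus had its Y-L level near that of the other groups, whereas the lower list had Y-L above them and DS+Y-L below them.

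Most of the higher genes took their difference from 2 libraries. Over the 20 higher genes the median log2 CPM exceeded the Y-L mean by 2.998 in DS+Y-L replicate 1, 3.49 in replicate 2 and 0.87 in replicate 3. Replicate 3 was the DS+Y-L library nearest to Y-L in 19 of the 20. Over the 20 lower genes the departures were -2.21, -2.48 and -1.59 in replicates 1, 2 and 3, and replicate 3 was the nearest to Y-L in 15. The 3 DS+Y-L libraries were therefore closer together in the lower list. Among all genes past a log2 fold change of 1, replicate 3 was the nearest to Y-L in 61.9% of the higher ones and 66.3% of the lower ones.

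The same unevenness held for the DESeq2 calls. Of the 276 genes that DESeq2 called higher, the groups did not overlap in 123, which is 44.6% of them, where 6.17% of all genes lay entirely higher. DS+Y-L replicate 3 lay inside the Y-L range in 109. Of the 159 called lower, the groups did not overlap in 148, which is 93.1%, where 7.91% of all genes lay entirely lower. DS+Y-L replicate 3 was inside the Y-L range in 11 of these. The genes higher in DS+Y-L took 5.08%, 6.66% and 0.895% of all counts in DS+Y-L replicates 1, 2 and 3, and 0.859%, 0.530% and 0.633% in the Y-L replicates. The genes lower in DS+Y-L took 0.343%, 0.281% and 0.489% in DS+Y-L replicates 1, 2 and 3, and 1.29%, 1.90% and 2.33% in the Y-L replicates. Replicate 3 thus lay near Y-L in the higher list and near its own group in the lower list, but both lists were called with replicate 3 among the data. The lists that edgeR called without it gave another picture for the lower genes. Their 191 lower genes took 0.222%, 0.191% and 1.53% of the counts in DS+Y-L replicates 1, 2 and 3, and 1.90%, 1.44% and 2.76% in the Y-L replicates. Their 247 higher genes took 5.03%, 6.30% and 0.816% in DS+Y-L replicates 1, 2 and 3, and 0.893%, 0.607% and 0.667% in the Y-L replicates. In lists chosen without it, replicate 3 therefore lay within the Y-L range in both directions.

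An extreme case was 1 gene, chosen after its values were seen as the largest log2 fold change among the 2292 genes averaging at least 100 CPM over the 6 libraries, a mean it reached through DS+Y-L replicates 1 and 2 alone. It stood at 851, 714 and 0.201 CPM in DS+Y-L replicates 1, 2 and 3, against 0.218, 0.582 and 0.118 CPM in the Y-L replicates. In the 15 libraries of other groups it never exceeded 2.56 CPM. Its edgeR log2 fold change was 10.76 (SE 2.26, adjusted p = 0.256), although DS+Y-L replicate 3 was as low as Y-L. In the opposite direction the largest change of these 2292 genes was -4.04 (SE 1.36, edgeR adjusted p = 0.373), in a gene at 40.1, 0.980 and 35.6 CPM in the DS+Y-L replicates and 103, 40.9 and 1120 CPM in the Y-L replicates. In the 15 libraries of other groups that gene ran from 18.3 to 1005 CPM, the highest being ck replicate 1, so a level near that of Y-L replicate 3 was also reached by a control library.

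Once DS+Y-L replicate 3 was left out, edgeR called 247 genes higher (0.594% of the 41595 tested) and 191 lower (0.459%). With the genes of the full fit kept, the count was 459, so the gain came with the library and not with the change of genes tested. No other single library of the 2 groups changed the count from 0, whichever of the 2 gene sets was tested. The other tools moved further on leaving it out, to 1025 higher (2.68%) and 1458 lower (3.82%) in DESeq2, and to 1226 higher (3.21%) and 539 lower (1.41%) in limma-voom. Of the leading 20 genes in each direction, edgeR without that library called all 20 higher ones and 7 lower ones, or 8 lower ones with the genes of the full fit kept. Without DS+Y-L replicate 3, DS+Y-L was represented by 2 libraries whose spread was partly borrowed from the other groups. The library left out was also the DS+Y-L library nearest to Y-L, so more calls without it are no independent support for a difference.

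DS+Y-L replicate 3, which took no part in choosing these genes, was then read in them, for the 239 higher and 191 lower genes that also passed the filter of the full fit. In the 239 higher genes replicates 1 and 2 exceeded the Y-L mean by a median log2 of 2.43 and 2.62, and replicate 3 by 0.11, where its median over all genes was 0.00466. Replicate 3 lay above all 3 Y-L libraries in 67 of them (28.0%, against 24.1% of all genes) and below all 3 in 58 (24.3%, against 24.0% of all genes). In the 191 lower genes the medians were -2.64 and -2.92 in replicates 1 and 2 and -0.44 in replicate 3. Replicate 3 lay below all 3 Y-L libraries in 85 of these (44.5%, against 24.0% of all genes) and above all 3 in 31 (16.2%, against 24.1%). The Y-L libraries were part of the contrast that chose the genes, so the same genes were also set against ck. The ck libraries were not in that contrast, though they entered the filter, the scaling and the estimate of spread. Against ck, replicate 3 lay below all 3 libraries in 46 of the lower genes (24.1%, against 26.6% of all genes) and above all 3 in 73 of the higher ones (30.5%, against 24.8% of all genes). In the opposite direction, replicate 3 lay above all 3 ck libraries in 58 of the lower genes (30.4%, against 24.8% of all genes). It lay below all 3 in 70 of the higher ones (29.3%, against 26.6% of all genes). Read against ck, the 2 directions were thus nearly even in the higher list. In the lower list the direction opposite to the call was the more frequent.

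**Figure D4:**
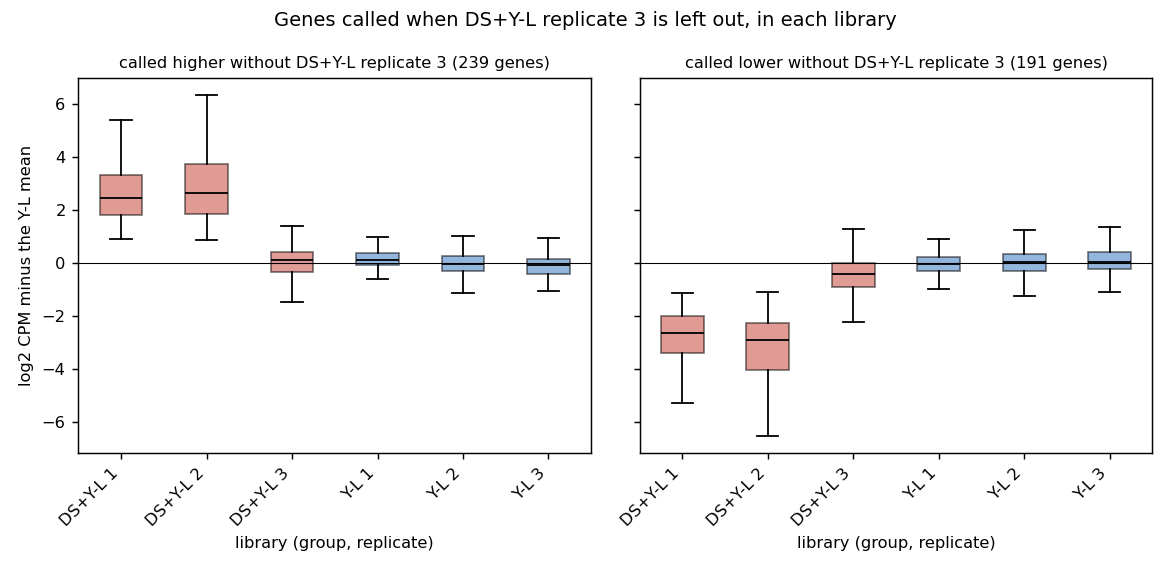
log2 CPM minus the Y-L mean in each of the 6 libraries, for the 239 genes called higher (left) and the 191 called lower (right) by edgeR without DS+Y-L replicate 3. Boxes hold the middle 50% of genes with a line at the median, and whiskers reach the farthest gene within 1.5 box lengths. The replicate 3 boxes lie near 0, with medians of 0.11 and -0.44.

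How clearly a difference could be seen varied with the level of the gene, though not steadily. In the 13228 genes averaging under 1 CPM over all 21 libraries, the median absolute log2 fold change was 0.79 with a median standard error of 1.16, and 5.16% passed an unadjusted edgeR p of 0.05. In the 2121 genes averaging 100 CPM or more the median absolute change was 0.51 with a standard error of 0.45, and 18.3% passed (186 higher and 202 lower). The genes of 10 to 100 CPM had the smallest median absolute change, 0.39, and the smallest median standard error, 0.37. Of these 10757 genes, 15.0% passed. The most abundant class leaned lower, with 193 genes at least doubled (9.10%) and 272 at least halved (12.8%), or 281 and 433 without DS+Y-L replicate 3. It took 54.6 ± 0.959% of the counts in DS+Y-L and 58.0 ± 1.79% in Y-L (SD, n = 3 each), with no overlap (two-sided exact permutation p = 0.1, the smallest possible). In libraries of the other groups this share ran from 50.6 to 62.3%, with both ends in DS-L, so the 2 groups lay inside that spread.

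Among genes without overlap, those of the longest quartile leaned higher and those of every shorter quartile leaned lower. By fold change quartile 3 was nearly even, with 1253 genes at least doubled and 1241 at least halved. The effective length was taken as the length implied by a gene's count, its FPKM and the library total. Among the 9552 genes of the longest quartile, over 1.39 kb, the DS+Y-L values were entirely above Y-L in 953 (9.98%) and entirely below in 531 (5.56%). Among the 9553 genes of the shortest quartile, up to 0.408 kb, they lay entirely above in 438 (4.58%) and entirely below in 775 (8.11%). The quartiles between them leaned lower as well, with 464 above and 886 below (9.27%) in quartile 2, and 501 above and 830 below (8.69%) in quartile 3. The lean to the lower side thus did not grow steadily as genes became shorter. Without DS+Y-L replicate 3 the counts were 2264 above and 1886 below in the longest quartile, and 1292 above and 1723 below in the shortest. The longest quartile took 46.2%, 48.6% and 51.3% of the counts in the DS+Y-L replicates, against 47.6%, 37.4% and 45.1% in the Y-L replicates. These shares overlapped, and Y-L replicate 2 was the lowest of all 21 libraries (two-sided exact permutation p = 0.2). The shortest quartile took 5.95%, 6.11% and 5.59% in the DS+Y-L replicates, against 6.35%, 8.11% and 6.93% in the Y-L replicates. Those did not overlap (two-sided exact permutation p = 0.1, the smallest possible), and libraries of the other groups ran from 5.31 to 7.81%. The part of transcript length in the result was not tested.

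The effective lengths themselves, which move when a gene's reads shift between its assembled isoforms, were also compared in 16838 genes with at least 20 counts and 1 FPKM in each of the 6 libraries. The median absolute log2 difference in length was 0.02, within the median SD of 0.07 between DS+Y-L libraries and 0.06 between Y-L libraries. The length was at least doubled without overlap in 12 genes and at least halved without overlap in 14, or 35 and 39 without DS+Y-L replicate 3. These lengths gave no count test.

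Whether DS made the same difference elsewhere was read from comparisons that share no library with DS+Y-L or Y-L. DS without Y was set against its own control in DS-L minus ck. Of the 276 genes DESeq2 called higher, 174 were higher in DS-L than in ck (63.0%, against 48.0% of all genes), with a median log2 difference of 0.21 against -0.03. Of the 159 called lower, 118 were lower in DS-L (74.2%, against 51.9% of all genes), with a median of -0.43. A log2 difference of at least 1 in the called direction was reached by 47 of the higher genes (17.0%, against 9.71% of all genes) and 41 of the lower ones (25.8%, against 11.3%). The called genes thus lay more often than all genes on the same side without Y, with medians far below the 2.66 and -2.50 of DESeq2 in DS+Y-L over Y-L.

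DS was added to Y at the other suffix in DS+Y-S minus Y-S. There 218 of the 276 higher genes were higher (79.0%, against 41.0% of all genes) and 127 of the 159 lower genes were lower (79.9%, against 58.8%). DS+Y-S replicate 1 detected fewer genes than any other library, 36755, and without it the numbers were 229 (83.0%, against 50.5%) and 133 (83.6%, against 49.3%). The median log2 differences were then 0.53 in the higher list and -0.45 in the lower list, against 0.01 in all genes. The genes called without DS+Y-L replicate 3 gave 80.3% and 89.5% in the same direction in DS+Y-S replicates 2 and 3 over Y-S, and 62.8% for both lists in DS-L over ck.

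DS at suffix S without Y, DS-S minus ck, did not show this. Of the 276 higher genes 131 were higher in DS-S (47.5%, against 50.7% of all genes), and of the 159 lower genes 81 were lower (50.9%, against 49.2%). The median log2 differences were -0.02 and -0.07, against 0.01 in all genes. In the lists called without DS+Y-L replicate 3, 47.3% of the higher genes were higher in DS-S and 41.4% of the lower genes were lower. That lower list leaned the other way, with 58.6% of its genes higher in DS-S, against 50.7% of all genes. These shares are descriptions of lists that were called in DS+Y-L against Y-L, and genes are not independent replicates.

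**Figure D5:**
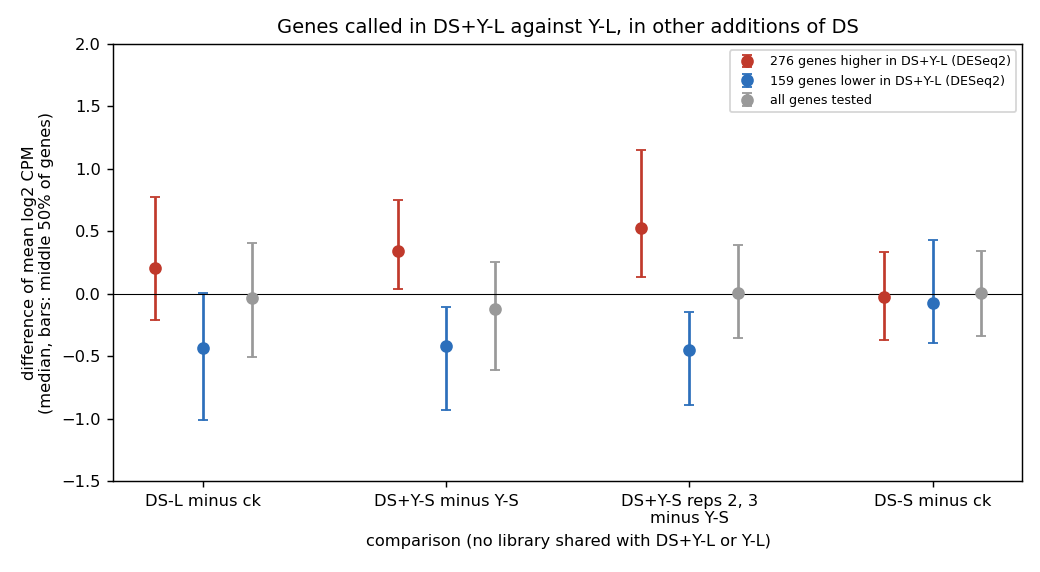
Difference of mean log2 CPM in 4 comparisons that share no library with DS+Y-L or Y-L, for the genes DESeq2 called higher (red) and lower (blue) in DS+Y-L and for all genes tested (grey). Points are medians over genes and bars the middle 50% of genes. The red and blue medians lie on either side of 0 in DS-L minus ck and in DS+Y-S minus Y-S, and near 0 in DS-S minus ck.

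Whether the difference on adding DS depended on its setting was tested as a difference of differences. Between adding DS with Y and adding it without Y at suffix L, edgeR called 0 of 38211 genes (0% called), with 2356 passing unadjusted (6.17%), while DESeq2 called 81 and limma-voom 1. Between suffix L and suffix S, edgeR also called 0 (0% called), with 1307 unadjusted (3.42%), 5 in DESeq2 and 0 in limma-voom. The median standard errors were 1.08 and 1.07 on the log2 scale. With DS+Y-L replicate 3 left out, the calls with Y against without Y were 88 in edgeR, 715 in DESeq2 and 738 in limma-voom, and those of suffix L against suffix S were 6 in edgeR, 214 in DESeq2 and 15 in limma-voom.

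For the named genes these differences of log2 fold changes had large errors. The 4 genes were chosen by their p in DS+Y-L against Y-L, and that change is part of both differences. The values are therefore likely inflated by the choice and give no support for a dependence on setting. With Y over without Y at suffix L, the difference was 3.34 (SE 0.80) for TRINITY_DN11331_c0_g2, 0.53 (SE 0.92) for TRINITY_DN26884_c0_g1, -2.47 (SE 0.69) for TRINITY_DN5508_c0_g1 and -1.40 (SE 0.54) for TRINITY_DN3473_c0_g1, with edgeR adjusted p from 0.803 to 0.961. Suffix L over suffix S gave 3.31 (SE 0.80) for TRINITY_DN11331_c0_g2, 4.34 (SE 0.93) for TRINITY_DN26884_c0_g1, -2.99 (SE 0.69) for TRINITY_DN5508_c0_g1 and -1.73 (SE 0.54) for TRINITY_DN3473_c0_g1, each with an edgeR adjusted p of 0.9999. Only TRINITY_DN26884_c0_g1 had a difference within 1 standard error of 0, between adding DS with and without Y.

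No gene was on in one group and off in the other. None had 10 or more counts in every library of one group and 0 counts in all 3 libraries of the other, out of 97500 in the table.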

How the data were processed

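RNA from leaves was sequenced after oligo(dT) enrichment of mRNA, per the labels' protocols. The authors deposited 1 table with raw counts and FPKM values for 97500 assembled genes in 21 libraries, per the file headers. Of the counting program, filters, strand setting and annotation nothing is given in the sources used here, so close copies and antisense genes may share reads. The design text speaks of 4 groups, whereas the titles, which set the groups, give 7. Members and lists were chosen with earlier results of these data known.

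The counts entered edgeR 4.0.16 (R 4.3.3) after filterByExpr by group (38211 genes) and TMM scaling, with quasi-likelihood fits of 7 groups in 21 libraries and calls below a Benjamini-Hochberg adjusted p of 0.05. CPM are TMM-scaled, and their log2 values had a prior count of 2. The common dispersion of 0.383 is a coefficient of variation of 0.619. Alternatives were DESeq2 1.42.0, whose adjusted p was missing for 7462 genes, limma 3.58.1 (voom with library weights), other scaling, no low-count filter, the replicate number as a block, the 6 libraries alone, and leaving out libraries. The named genes were, of each direction, the 2 with the smallest edgeR p that had no overlap between groups, an absolute log2 fold change of 1 or more and a higher mean of 5 CPM or more. Any 2 libraries of a group differed by more than sampling noise, with chi-square per degree of freedom from 60.9 to 214. The fits were tested on simulated data before use.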

Additional observations from a re-analysis of the deposited data

How the results depend on the processing

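The count of genes called in DS+Y-L against Y-L was 0, and it stayed 0 with DESeq2 size factors in edgeR, a log2 fold minimum of 1, only the 6 libraries, and DS+Y-S replicate 1 left out of the fit. Without a low-count filter edgeR called 1733, of which 1646 pass the filter. With the filter kept, DESeq2 called 435 and limma-voom 22. Leaving out single libraries gave from 0 to 459 in edgeR (438 without DS+Y-L replicate 3 when the filter was applied again), and without that library DESeq2 called 2483 and limma-voom 1765. For adding DS with Y against without Y, the count of 0 became 818 without the filter, 1 in limma-voom and 81 in DESeq2, and it ranged in edgeR from 0 to 91 when single libraries were left out (88 with the filter applied again); absent DS+Y-L replicate 3, limma-voom gave 738 calls and DESeq2 715. For suffix L against suffix S it became 410 without the filter, 5 in DESeq2, and it ranged in edgeR from 0 to 6 when single libraries were left out (5 with the genes of the full fit kept); absent DS+Y-L replicate 3, limma-voom gave 15 calls and DESeq2 214. In the last 2 comparisons too, DS+Y-L replicate 3 was the library whose removal raised the count. The cause was not tested. The fits that kept the genes of the full fit, and DESeq2 and limma-voom without that library, were chosen after seeing the data.

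With the replicate number as a block, edgeR called 0 genes in all 3 comparisons. The labels do not say whether the numbers pair the samples. Same-numbered DS+Y-L and Y-L libraries deviated with correlations of -0.18, 0.07 and 0.22 for replicates 1, 2 and 3 across genes. Differently numbered ones ranged from -0.26 to 0.25. With 3 libraries per group these values cannot decide whether the samples are paired. The 4 named genes kept their direction in all 21 alternatives each. The difference of 567 detected genes ranged from -2359 to 2913 when single libraries were left out, turning negative at -56.7 and -1156 when DS+Y-L replicate 2 or 3 was left out and at -2359 when Y-L replicate 2 was. The share of counts in the most abundant genes stayed lower in DS+Y-L under every alternative run, by -3.93 to -1.44 percentage points.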
